A study of Mus musculus with 10 samples.

Results

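The 24 genes described here belong to the tumour necrosis factor (TNF) superfamily, and their expression was compared between colon tumours of mice lacking Bcl9 and Bcl9l and colon tumours of wild-type mice. They are all genes of the array annotation whose symbol starts with Tnfrsf or Tnfsf and a digit, other than Tnfrsf19, Tnfrsf17 and Tnfsf10, out of 18193 genes with a probe set of a single symbol. By their symbols 17 encode receptors and 6 encode ligands, and 1, Tnfsf13os, is a gene antisense to ligand genes. Each gene is represented by its probe set with the highest mean over the 10 arrays.

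The KO tumours (genotype vil-Cre-Bcl9-/-/Bcl9l-/-) numbered 5 and came from 3 mice, with tumours 2 and 6 from mouse 02, tumours 9 and 11 from mouse 04 and tumour 7 from mouse 99. The WT tumours (genotype wildtype) also numbered 5 and came from 2 mice, with tumours 1, 3, 12 and 13 from mouse 72 and tumour 8 from mouse 82. Mice of both genotypes had a 129SvEv/C57BL/6/DBA/2 mixed background and, at an age of 6 to 8 weeks, received dimethylhydrazine once at 44 mg/kg, a precursor of the colon carcinogen azoxymethane, and then dextran sulfate sodium at 2% in drinking water for 7 days, which inflames the colon. Tumour tissue was cut out of colon sections by laser and its RNA was amplified and hybridised to whole-genome Affymetrix mouse arrays, with 1 array for each tumour. In vil-Cre mice the Cre recombinase is driven by the villin promoter, which is active in the intestinal epithelium, so other cells of the dissected tissue are not its target, and whether the WT mice carried Cre is not given in the sources used here. Both deleted genes encode adaptors that join beta-catenin with Pygo proteins when Wnt target genes are transcribed. By the extraction text material of a mouse was pooled, which does not match several arrays with the same mouse number. Every array was taken for 1 tumour here, following the titles.

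TNF superfamily ligands are mostly made as trimers on the cell surface, can be shed, and act on neighbouring cells through receptors with cysteine-rich extracellular domains. Receptors with a death domain can start apoptosis, most others recruit TRAF adaptors and activate NF-kB, and decoy receptors bind a ligand without passing on a signal. In the gut the family governs lymphoid tissue, survival of B cells, costimulation of T cells and the response of epithelium to inflammation.

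The deposited values are log2 RMA signals, and array medians lay between 6.43 and 6.50. KO and WT were compared for 12250 genes with a mean of at least 5.82 log2 by limma with the mouse as a random block and Benjamini-Hochberg adjustment over all genes tested, at a threshold of 0.05. Nothing in the labels says that tumours of a mouse are independent, so p-values measure the spread between these samples, and 4 of the 5 WT tumours share a mouse. WT tumour 1 correlated least with the other arrays, with a mean Pearson correlation of 0.964 against 0.970 to 0.976 for the rest. Unique sample numbers of KO tumour 7 and WT tumours 3, 8, 12 and 13 fell in 191 to 229. Those of the other KO tumours and WT tumour 1 fell in 254 to 258, and the labels do not say what the ranges mark. A fit within 1 range thus has 1 tumour in a group, which is assumed to vary like the others. Of 5 probe sets of Bcl9 and Bcl9l 0 passed (differences between -0.14 and 0.32 log2, lowest adjusted p = 0.250, limma), and since the labels do not say where they lie in the deleted genes they check nothing about the genotype. Of 6 epithelial markers 0 passed, where 7.09% of all genes tested passed in either direction. Epcam was at 13.59 ± 0.07 log2 in KO tumours and 13.58 ± 0.09 log2 in WT tumours (SD, n = 5 each), and Vil1, whose promoter drives the Cre, at 11.81 ± 0.14 log2 in KO tumours and 11.13 ± 0.44 log2 in WT tumours, without overlap (adjusted p = 0.0716, limma).

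Among the 24 genes, 4 rose in KO tumours. These were Tnfrsf13c, the receptor for the B cell survival factor BAFF, Tnfrsf1a, the death-domain receptor of TNF, Tnfrsf14, a receptor of lymphocyte costimulation and inhibition, and the antisense gene Tnfsf13os. With mouse means as the units in place of tumours, only Tnfrsf13c was called higher. A test was made for 18 of the 24, and of those 4 were called higher and 0 lower, where 4.16% of all genes tested were called higher and 2.93% lower, 7.09% together. Of the 4 called genes, Tnfrsf13c and Tnfsf13os had WT means under the level of 5.82 log2. They entered the test only through their higher KO values. The level filter thus partly sets the count of called genes, and also the median and the further counts of this paragraph. The other 14 tested genes did not pass, with differences between -0.44 and 0.77 log2 and adjusted p-values between 0.0671 and 0.971 (limma). The median difference of the 18 was 0.18 log2, against 0.03 for all 12250 genes tested. The difference lay above 0 for 14 of the 18 and for 6586 of the 12250. All 5 KO tumours lay above all 5 WT tumours for 3 of the 18 genes, Tnfrsf13c, Tnfsf13os and Tnfrsf1b, where 5.33% of all genes tested did so, 3.79% had all KO tumours below, and 9.12% thus had no overlap. An unadjusted p under 0.05 was found for 5 of the 18, where 22.4% of all genes tested had one. By kind, 3 of 14 tested receptors rose and 0 of 3 tested ligands did.

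The 6 genes below the level of 5.82 log2 were the receptor genes Tnfrsf13b, Tnfrsf8 and Tnfrsf4 and the ligand genes Tnfsf11, Tnfsf8 and Tnfsf4, with means over the 10 tumours between 3.98 and 5.796. Tnfrsf13b lay just under the level, at 5.796, and Tnfrsf25 just above it at 5.92. In a fit without the level filter 5 of the 24 genes were called higher, Tnfrsf13b being the further one, where 3.11% of all 18193 genes were called higher and 5.4% in either direction.

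**Figure D1:**
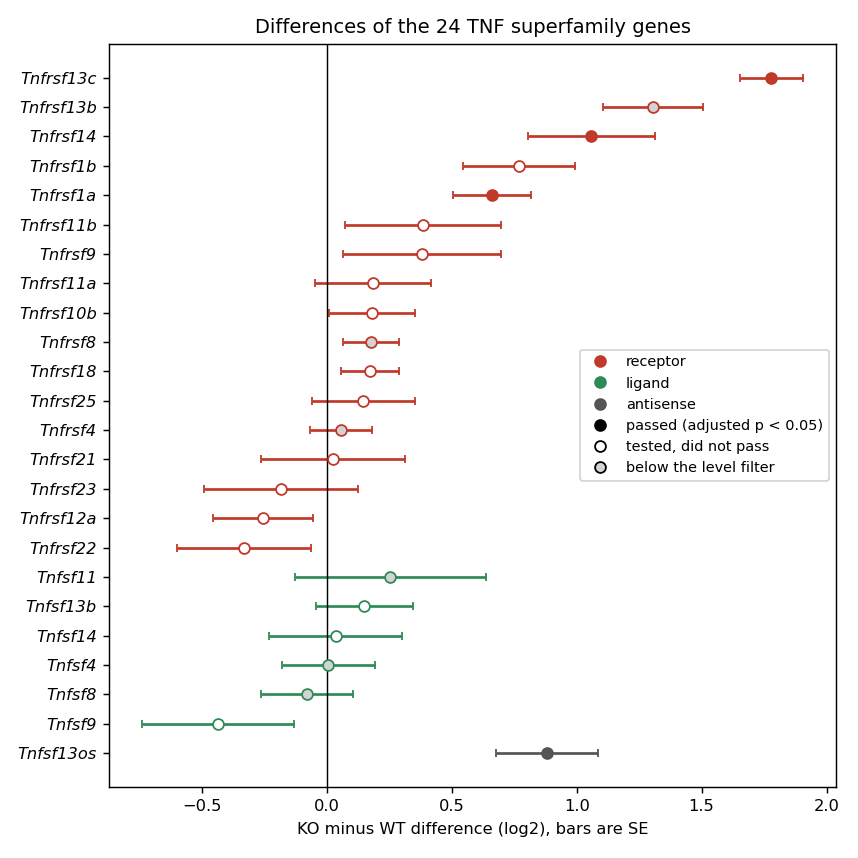
KO minus WT difference of each of the 24 genes on the log2 scale, with its standard error, in red for receptors, green for ligands and grey for the antisense gene. Filled points passed the test, open points did not, and points with a grey centre lay below the level filter. Tnfrsf13c is farthest to the right, at 1.78, and Tnfsf9 farthest to the left, at -0.44.

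BAFF and its relative APRIL are ligands that keep B cells and plasma cells alive, BAFF through its receptor BAFF-R and both through TACI. Tnfrsf13c, on chromosome 15, encodes BAFF-R. Its signal was 7.26, 7.57, 7.87, 7.48 and 7.65 log2 in KO tumours 2, 6, 7, 9 and 11, against 5.77, 5.74, 5.78, 5.98 and 5.67 log2 in WT tumours 1, 3, 8, 12 and 13. The groups were far apart, with the lowest KO tumour above the highest WT tumour, and neither group had a tumour away from the others. The mean was 7.56 ± 0.22 log2 in KO tumours and 5.79 ± 0.12 log2 in WT tumours (SD, n = 5 each), a 3.43-fold higher signal in KO (difference 1.78 ± 0.13 log2, SE, adjusted p = 0.000131, limma). The WT mean lay under the filter level of 5.82. With mouse means as the units, 3 KO against 2 WT, the difference was 1.83 log2 (adjusted p = 0.0115, limma). Within sample numbers 191 to 229, where KO tumour 7 is the only KO tumour, it was 2.08 log2. Within 254 to 258, where WT tumour 1 is the only WT tumour, it was 1.72 log2. Under the 28 alternatives in which it was tested the difference lay between 1.70 and 2.08 and passed, some of them leaving 1 tumour in a group. A level filter at the 60th percentile left the gene out of the test.

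Tnfrsf13b, on chromosome 11, encodes TACI, which binds BAFF and APRIL. It was at 6.23, 6.66, 6.37, 6.46 and 6.50 log2 in the KO tumours, against 5.21, 4.62, 4.83, 5.75 and 5.33 log2 in the WT tumours, in the order of tumours given above, which is kept below. All 5 KO tumours were above all 5 WT tumours, as for Tnfrsf13c. The mean was 6.45 ± 0.16 log2 in KO tumours and 5.15 ± 0.44 log2 in WT tumours (SD, n = 5 each), a difference of 1.30 ± 0.20 log2 (SE, adjusted p = 0.00475 in limma without the level filter). Without any 1 of the tumours the difference of the means stayed between 1.17 and 1.45 log2.

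Tnfsf13b, on chromosome 8, encodes the ligand BAFF itself and did not pass, at 7.34 ± 0.30 log2 in KO tumours and 7.18 ± 0.31 log2 in WT tumours (SD, n = 5 each, difference 0.15 ± 0.19, SE, adjusted p = 0.697, limma). Its KO tumours ran between 6.87 and 7.72 and its WT tumours between 6.77 and 7.52, so the groups overlapped over most of their range. Its other probe sets differed by 0.47 ± 0.17 log2 (SE, adjusted p = 0.165 over all probe sets with 1 symbol, limma) and by 0.01. The ligand APRIL is encoded by Tnfsf13, for which the array annotation gives no probe set of a single symbol. A probe set that lists Tnfsf13, Tnfsf12 and Tnfsfm13 together is not assigned to one of them here, although the accession in its annotation is one of Tnfsf13. It was at 9.50, 9.90, 9.82, 9.86 and 9.58 log2 in the KO tumours, against 7.90, 9.03, 8.77, 8.68 and 8.58 log2 in the WT tumours, without overlap. The difference was 1.14 ± 0.20 log2 (SE, adjusted p = 0.0108 over all probe sets, limma). The probe set that lists Tnfsf12 and Tnfsfm13 alone differed by 0.19 ± 0.15 log2 (SE, adjusted p = 0.564, limma).

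Tnfsf13os, on chromosome 11, is annotated antisense to this ligand locus. In the GRCm38.p6 gene table it overlaps Tnfsf13, Tnfsf12, Tnfsfm13 and Senp3. The strand read by its probe sets was not checked, so the signal listed under Tnfsf13os is not assigned to either strand. It was at 6.01, 6.74, 6.96, 6.12 and 6.18 log2 in the KO tumours, against 5.49, 5.72, 5.71, 5.46 and 5.21 log2 in the WT tumours. KO tumours 6 and 7 were the highest, and the groups did not overlap. The mean was 6.40 ± 0.42 log2 in KO tumours and 5.52 ± 0.21 log2 in WT tumours (SD, n = 5 each), 1.84-fold higher in KO (difference 0.88 ± 0.20 log2, SE, adjusted p = 0.0285, limma). Its second probe set differed by 0.19 ± 0.11 log2 (SE, adjusted p = 0.413, limma), with overlap. It did not pass with mouse means (adjusted p = 0.142), after adjustment for the 3′ to 5′ signal of control probe sets, a measure of RNA quality (0.0539), without KO tumour 6 (0.0786), WT tumour 1 (0.0660) or WT tumour 13 (0.0573), without mouse 02 (0.0578) or 72 (0.459), or within sample numbers 191 to 229 (1.44 log2, adjusted p = 0.118, limma) or 254 to 258 (0.77 log2, adjusted p = 0.237).

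**Figure D2:**
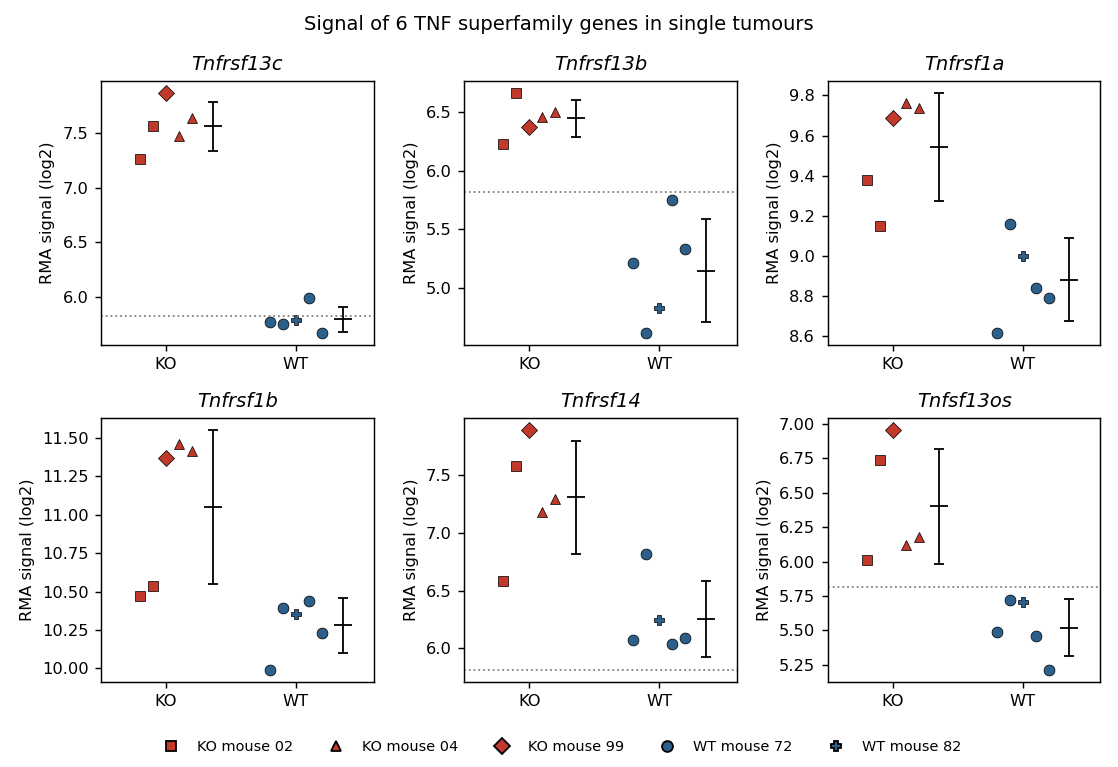
RMA signal (log2) of 6 genes in each KO tumour (red, left) and WT tumour (blue, right), with the marker shape giving the mouse and bars giving the mean and SD of 5 tumours. The dotted line, where it falls in the range shown, is the filter level of 5.82. KO and WT tumours do not overlap for Tnfrsf13c, Tnfrsf13b, Tnfrsf1b and Tnfsf13os, and for Tnfrsf1a and Tnfrsf14 1 KO tumour lies below the highest WT tumour.

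Most measured markers of B and plasma cells were also higher in KO tumours. Of 5 markers measured, 4 were tested and all 4 rose in KO tumours, namely the plasma cell gene Jchain by 2.75 log2, the B cell coactivator gene Pou2af1 by 2.68 and the antigen receptor chain genes Cd79a by 1.81 and Cd79b by 1.10 (adjusted p between 0.00151 and 0.00304, limma). Cd79a, Cd79b and Pou2af1 had WT means under the level of 5.82 log2 and entered the test only through their higher KO values. Over all genes tested 4.16% rose. Without the level filter 4 of the 5 markers passed. The mean level of the 5 ran between 7.17 and 7.70 log2 in KO tumours and between 5.34 and 6.16 in WT tumours, without overlap. Within sample numbers 191 to 229 the 4 differences ran between 1.59 and 3.04 log2 and none passed (adjusted p between 0.0703 and 0.200, limma), and within 254 to 258 they ran between 0.96 and 1.92, with Cd79a and Pou2af1 not past the threshold. Cd79b did not pass with mouse means (adjusted p = 0.0614, limma), and Cd79a and Cd79b did not pass without mouse 72 (adjusted p = 0.105 and 0.146). The B cell marker Ms4a1 lay below the filter, at 3.78 ± 0.41 log2 in KO tumours and 3.38 ± 0.16 log2 in WT tumours (SD, n = 5 each). In such bulk tissue, a change in the number of cells of a type and a change in RNA per cell cannot be told apart, and the part of these cells in the values of Tnfrsf13c and Tnfrsf13b was not tested.

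TNF signals through TNFR1, which carries a death domain and is made by most cells, and through TNFR2, which is found mostly on leukocytes and endothelium. Tnfrsf1a, on chromosome 6, encodes TNFR1. Its signal was 9.38, 9.15, 9.69, 9.76 and 9.74 log2 in the KO tumours, against 8.62, 9.16, 8.999, 8.84 and 8.79 log2 in the WT tumours. KO tumour 6 lay just below WT tumour 3, the highest of its group, and the other KO tumours lay above all WT tumours. The mean was 9.54 ± 0.27 log2 in KO tumours and 8.88 ± 0.21 log2 in WT tumours (SD, n = 5 each), 1.58-fold higher in KO (difference 0.66 ± 0.16 log2, SE, adjusted p = 0.0302, limma). It did not pass with mouse means (0.64 log2, adjusted p = 0.151, limma), after the 3′ to 5′ adjustment (0.59 log2, adjusted p = 0.0685), without KO tumour 7 (adjusted p = 0.0525), KO tumour 11 (0.0628), WT tumour 1 (0.0697) or WT tumour 13 (0.0614), or without mouse 04 (0.116), 72 (0.383) or 99 (0.0525). Within sample numbers 191 to 229 the difference was 0.74 log2 (adjusted p = 0.297, limma) and within 254 to 258 it was 0.89 (adjusted p = 0.148), neither of which passed.

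Tnfrsf1b, on chromosome 4, encodes TNFR2. It was at 10.47, 10.53, 11.37, 11.46 and 11.42 log2 in the KO tumours, against 9.99, 10.39, 10.36, 10.44 and 10.23 log2 in the WT tumours. The KO tumours formed a lower pair, both from mouse 02, and a higher trio, and the lower pair was only just above the WT tumours. The mean was 11.05 ± 0.50 log2 in KO tumours and 10.28 ± 0.18 log2 in WT tumours (SD, n = 5 each), a difference of 0.77 ± 0.22 log2 (SE) that did not pass (adjusted p = 0.0671, limma). It passed without KO tumour 2 (0.91 log2, adjusted p = 0.0304, limma) and without mouse 02 (1.13 log2, adjusted p = 0.00297), with the range of sample numbers as a covariate (0.997 log2, adjusted p = 0.0496) and with array weights (0.81 log2, adjusted p = 0.0467). Under all other alternatives Tnfrsf1b did not pass. Among these were mouse means (0.79 log2, adjusted p = 0.245, limma), the 3′ to 5′ adjustment (0.64 log2, adjusted p = 0.118) and leaving out mouse 04 (0.51 log2, adjusted p = 0.226). Its second probe set differed by 0.33 ± 0.17 log2 (SE, adjusted p = 0.332, limma). The ligand gene Tnf itself was at 6.92 ± 0.59 log2 in KO tumours and 6.59 ± 0.29 log2 in WT tumours (SD, n = 5 each) and did not pass (adjusted p = 0.528, limma).

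Tnfrsf14, on chromosome 4, encodes HVEM, which the ligand LIGHT engages on lymphocytes and epithelium and which also binds the inhibitory receptor BTLA. Its signal was 6.59, 7.58, 7.89, 7.18 and 7.30 log2 in the KO tumours, against 6.07, 6.82, 6.25, 6.04 and 6.09 log2 in the WT tumours. KO tumour 2 lay below WT tumour 3, and the other KO tumours lay above all WT tumours. The mean was 7.31 ± 0.49 log2 in KO tumours and 6.25 ± 0.33 log2 in WT tumours (SD, n = 5 each), 2.08-fold higher in KO (difference 1.06 ± 0.25 log2, SE, adjusted p = 0.0320, limma). It did not pass with mouse means (1.15 log2, adjusted p = 0.0826, limma), without KO tumour 6 (adjusted p = 0.0914), KO tumour 11 (0.0559), or WT tumours 1 (0.0789), 8 (0.0559), 12 (0.0515) or 13 (0.0638), or without mouse 04 (0.0820) or 72 (0.336). Within sample numbers 191 to 229 the difference was 1.59 log2 (adjusted p = 0.150, limma) and within 254 to 258 it was 1.09 (adjusted p = 0.184). Tnfsf14, the gene of LIGHT, was at 6.07 ± 0.26 log2 in KO tumours and 6.05 ± 0.56 log2 in WT tumours (SD, n = 5 each) and did not pass (adjusted p = 0.956, limma), with WT tumour 1 its highest tumour at 6.95.

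The RefSeq promoter windows of Tnfrsf13c, Tnfrsf13b, Tnfrsf1a, Tnfrsf1b and Tnfrsf14 were read for short motifs of factors known to act on immune genes. In each of these genes the KO tumours lay mostly or wholly above the WT tumours. The windows of Tnfrsf13c and Tnfrsf13b held no match and are not shown. For the other genes the 250 bases before the start are shown 5′ to 3′ on the gene's strand (build GRCm38.p6), with matches in capitals. They lie at chr6:125349473-125349722 on the plus strand for Tnfrsf1a, at chr4:145246871-145247120 on the minus strand for Tnfrsf1b and at chr4:154928078-154928327 on the minus strand for Tnfrsf14.
Tnfrsf1a: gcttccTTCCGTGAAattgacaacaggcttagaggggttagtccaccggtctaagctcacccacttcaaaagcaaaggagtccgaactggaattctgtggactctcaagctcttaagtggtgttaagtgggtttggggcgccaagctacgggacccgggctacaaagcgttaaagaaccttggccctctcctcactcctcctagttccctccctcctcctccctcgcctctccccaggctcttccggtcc
Tnfrsf1b: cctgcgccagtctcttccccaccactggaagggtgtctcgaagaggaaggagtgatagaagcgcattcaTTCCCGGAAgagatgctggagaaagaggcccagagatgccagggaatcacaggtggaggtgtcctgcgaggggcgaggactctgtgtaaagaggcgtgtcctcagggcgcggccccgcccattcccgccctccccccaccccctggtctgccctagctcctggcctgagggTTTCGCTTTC
Tnfrsf14: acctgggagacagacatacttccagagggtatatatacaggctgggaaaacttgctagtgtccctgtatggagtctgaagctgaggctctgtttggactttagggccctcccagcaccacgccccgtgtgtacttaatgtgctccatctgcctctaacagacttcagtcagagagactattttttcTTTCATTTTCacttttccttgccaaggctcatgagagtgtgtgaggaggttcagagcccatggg
The capitals near the left end of Tnfrsf1a, at positions -244 to -236 counted from the start, and the first capitals of Tnfrsf1b, at -181 to -173, match the STAT motif GAS (TTCNNNGAA), a palindrome that reads alike on both strands. The capitals of Tnfrsf14, at -64 to -55, and the last of Tnfrsf1b, at -10 to -1, match the interferon motif ISRE (GAAANNGAAA) on the opposite strand.

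Windows of 300 bases, 250 before to 50 after the start, were found for 18 of the 24 genes, and 5 motifs were searched on both strands. GAS was in a window of 5 of the 18 genes (Tnfrsf18, Tnfrsf1a, Tnfrsf1b, Tnfrsf25 and Tnfrsf9), and 9.55% of all 27025 genes with such a window held it. ISRE was in 3 (Tnfrsf14, Tnfrsf1b and Tnfsf13b) against 3.99% of all genes, and the NF-kB motif in 2 (Tnfrsf8 and Tnfrsf9) against 5.14%. The TCF motif (CTTTGAT or CTTTGAA) was in 1, Tnfrsf9, against 9.88%, and the PU.1 motif (GAGGAAGT) in 0 against 3.69%. Tnfrsf13c and Tnfrsf13b held no match of the 5 in these windows. Of the genes with GAS only Tnfrsf1a passed, and of those with ISRE only Tnfrsf14 passed. A match of letters is a description of the window.

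Several members are receptors and ligands through which T cells are costimulated, and none of the 3 that were tested passed. Over all genes tested 7.09% passed in either direction. Tnfrsf18 encodes GITR, found on regulatory and activated T cells, and was at 7.89, 7.77, 8.06, 7.77 and 7.96 log2 in the KO tumours, against 7.98, 7.77, 7.59, 7.76 and 7.52 log2 in the WT tumours. Its tumours spanned a narrow range in which the groups overlapped (difference 0.17 ± 0.12 log2, SE, adjusted p = 0.418, limma). Tnfrsf9 encodes 4-1BB, a receptor of activated T and NK cells, and was at 6.53, 6.23, 6.02, 5.89 and 6.33 log2 in the KO tumours, against 6.12, 5.94, 4.60, 6.21 and 6.42 log2 in the WT tumours. WT tumour 8 stood far below all others, and the rest overlapped (difference 0.38 ± 0.32 log2, SE, adjusted p = 0.522, limma). Without mouse 72, which leaves WT tumour 8 alone in its group, the difference was 1.59 log2 (adjusted p = 0.0353, limma, the lone tumour being assumed to vary like the others).

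Tnfsf9 encodes the ligand of 4-1BB and had the most negative difference among the 24 genes. It was at 5.56, 5.74, 6.25, 5.91 and 6.09 log2 in the KO tumours, against 7.47, 6.15, 5.73, 6.09 and 6.42 log2 in the WT tumours. WT tumour 1 was more than 1 log2 above every other tumour, and the other WT tumours overlapped with the KO tumours (difference -0.44 ± 0.30 log2, SE, adjusted p = 0.441, limma). Within sample numbers 254 to 258, where WT tumour 1 is the only WT tumour, the difference was -1.64 log2 (adjusted p = 0.0190, limma), and within 191 to 229 it was 0.14 (adjusted p = 0.910).

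The other costimulatory pairs, OX40 (Tnfrsf4) with its ligand (Tnfsf4) and CD30 (Tnfrsf8) with its ligand (Tnfsf8), lay below the filter level. Their differences were 0.06, 0.01, 0.18 and -0.08 log2 (unadjusted p = 0.648, 0.977, 0.141 and 0.679, limma without the level filter). Of 6 T cell markers measured, 5 were tested and 3 rose in KO tumours, the coreceptor gene Cd8a by 2.70 log2, the T cell receptor complex gene Cd3g by 1.63 and the adhesion receptor gene Cd2 by 0.96 (adjusted p = 0.000192, 0.00301 and 0.0260, limma). These 3 had WT means under the level of 5.82 log2 and entered the test only through their higher KO values. Over all genes tested 4.16% rose. Cd3d and Cd4 did not pass, with differences of 0.58 and 0.05 log2 (adjusted p = 0.133 and 0.788, limma). Cd3e lay below the filter, with a difference of 1.71 log2 (adjusted p = 0.00475 in limma without the level filter). Cd2 did not pass without KO tumours 6 or 11, WT tumours 1 or 8, or mice 04, 72 or 82 (adjusted p between 0.0510 and 0.113, limma), nor with mouse means (0.0860), nor after the 3′ to 5′ adjustment (0.87 log2, adjusted p = 0.0553), nor within either range of sample numbers, and Cd3g did not pass within 191 to 229 (adjusted p = 0.217). The mean level of the 6 ran between 6.47 and 7.07 log2 in KO tumours and between 5.37 and 6.02 in WT tumours, without overlap. Of 3 tested markers of regulatory T cells 0 passed (adjusted p between 0.0796 and 0.712, limma). An unadjusted p under 0.05 was found for 2 of them, where 22.4% of all genes tested had one (limma). Over all 4 measured the mean level ran between 6.93 and 7.34 log2 in KO tumours and between 5.96 and 7.06 in WT tumours. The part of these cells in the values of the costimulatory genes was not tested.

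RANK, its ligand RANKL and the soluble decoy osteoprotegerin govern bone resorption, and in the gut RANK on epithelium directs the making of M cells over lymphoid follicles. Tnfrsf11b, on chromosome 15, encodes osteoprotegerin. It was at 10.58, 10.28, 10.81, 11.45 and 11.36 log2 in the KO tumours, against 10.71, 9.53, 10.74, 10.61 and 10.91 log2 in the WT tumours. Both tumours of mouse 04 were the highest and WT tumour 3 the lowest, with overlap between (difference 0.39 ± 0.31 log2, SE, adjusted p = 0.512, limma). Its second probe set gave 0.75 ± 0.46 log2 (SE, adjusted p = 0.432, limma). Tnfrsf11a, the gene of RANK, was at 6.88 ± 0.21 log2 in KO tumours and 6.71 ± 0.49 log2 in WT tumours (SD, n = 5 each) and did not pass (adjusted p = 0.693, limma). Tnfsf11, the gene of RANKL, lay below the filter and was between 4.73 and 5.11 log2 in 4 KO tumours and at 6.63 in KO tumour 7, against 4.48 to 5.76 in the WT tumours (difference 0.25 ± 0.38, SE, unadjusted p = 0.521, limma).

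Of the death and decoy receptors 0 of 5 passed, where 7.09% of all genes tested passed in either direction. Tnfrsf10b encodes the mouse receptor of the death ligand TRAIL and was at 8.12 ± 0.25 log2 in KO tumours and 7.95 ± 0.29 log2 in WT tumours (SD, n = 5 each, adjusted p = 0.587, limma). Tnfrsf22 and Tnfrsf23 encode mouse decoys of TRAIL. Tnfrsf22 was at 9.28, 8.27, 8.44, 8.44 and 8.87 log2 in the KO tumours, against 8.33, 9.10, 9.08, 8.81 and 9.60 log2 in the WT tumours. KO tumour 2 and WT tumour 1 ran against the order of the other tumours, in which WT was mostly above KO (difference -0.33 ± 0.27 log2, SE, adjusted p = 0.516, limma). Tnfrsf23 differed by -0.18 ± 0.31 log2 (SE, adjusted p = 0.770, limma), and a probe set that lists both decoys by -0.21 ± 0.21 (SE, adjusted p = 0.679). Tnfrsf25, the gene of the death-domain receptor DR3, differed by 0.15 ± 0.21 log2, and Tnfrsf21, the gene of DR6, by 0.02 ± 0.29 (SE, adjusted p = 0.728 and 0.971, limma). For Tnfrsf21 the WT tumours were widely spread, between 8.41 in WT tumour 1 and 10.01 in WT tumour 12, while the KO tumours lay between 9.23 and 9.77.

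Tnfrsf12a, on chromosome 17, encodes Fn14, the receptor of TWEAK that is induced in injured epithelium. It was at 9.01, 8.95, 9.72, 9.71 and 9.57 log2 in the KO tumours, against 9.74, 9.91, 9.28, 9.88 and 9.51 log2 in the WT tumours. Both tumours of mouse 02 were below all WT tumours, whereas the other KO tumours lay among them (difference -0.25 ± 0.20 log2, SE, adjusted p = 0.498, limma). Without mouse 02 the difference was 0.01 log2.

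The KO tumours of mouse 02 stood apart from the other KO tumours for several of the 24 genes. Both lay below the other 3 KO tumours for 6 of the 18 tested genes (Tnfrsf1a, Tnfrsf1b, Tnfsf9, Tnfrsf12a, Tnfrsf11b and Tnfrsf21) and above them for 1, Tnfrsf25. Over all genes tested, both lay below for 11.1% and above for 13.4%. The mean of mouse 02 minus that of the other KO tumours was -0.91 log2 for Tnfrsf1b, -0.77 for Tnfrsf11b, -0.69 for Tnfrsf12a and -0.47 for Tnfrsf1a. For Tnfrsf13c, Tnfrsf13b, Tnfrsf14 and Tnfsf13os the 2 tumours overlapped with the other KO tumours. The T cell marker level was also lowest among KO tumours in mouse 02, at 6.47 and 6.67 log2 against 7.03 to 7.07 in the others, whereas the B and plasma cell level was 7.17 and 7.70 against 7.31 to 7.67. These 2 tumours are 1 animal, and the tumours of mouse 02 were looked at apart after the values were seen.

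**Figure D3:**
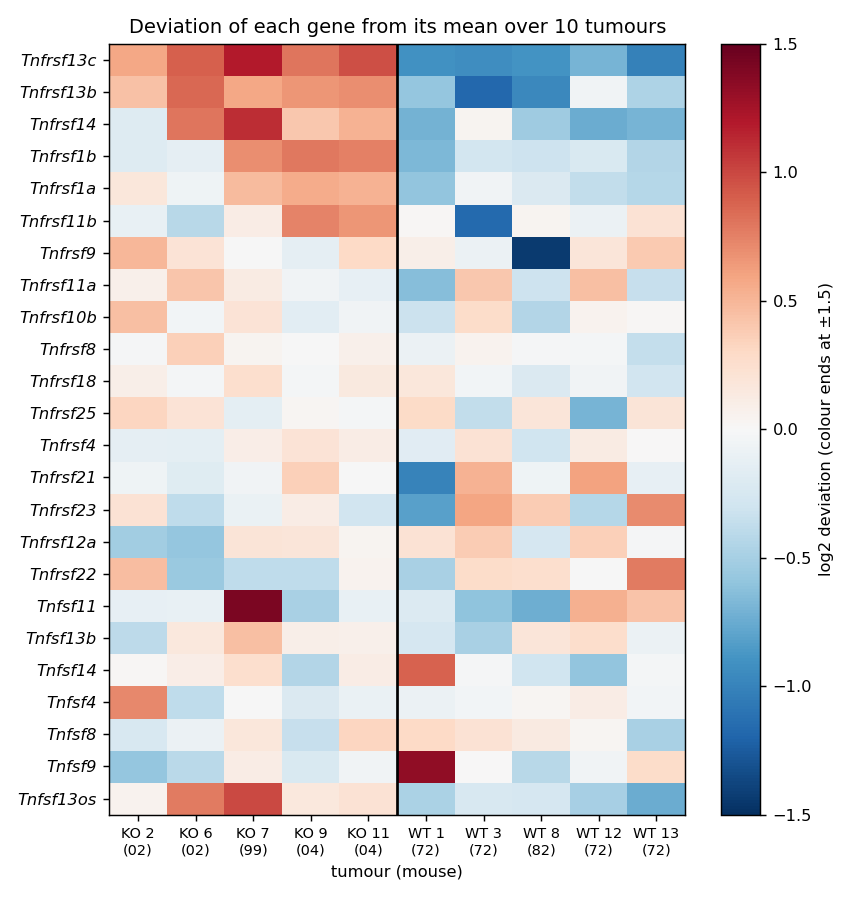
Signal of each of the 24 genes in each tumour, as the log2 deviation from the gene's mean over all 10 tumours, with KO tumours on the left of the black line, WT tumours on the right and the mouse in parentheses. Red is above the mean and blue below. The top rows, Tnfrsf13c and Tnfrsf13b, are red in all 5 KO tumours and blue or near white in all 5 WT tumours, while most rows below Tnfrsf1a hold both colours in each group.

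Several of the genes are neighbours on chromosomes in the GRCm38.p6 gene table. On chromosome 4, which holds 8 of the 24 genes, Tnfrsf1b and Tnfrsf8 have 0 protein-coding genes between them, and they differed by 0.77 and 0.18 log2. Tnfrsf4 and Tnfrsf18, also adjacent, differed by 0.06 and 0.17 log2, and on chromosome 7 the adjacent decoys Tnfrsf22 and Tnfrsf23 by -0.33 and -0.18. On chromosome 17, Tnfsf9 and Tnfsf14, with 1 gene between them, differed by -0.44 and 0.04 log2. These are values side by side, and the difference between neighbours was not tested.

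Among 15 relatives of the family with other symbols, 8 were tested and 1 rose, where 4.16% of all genes tested rose. That 1 was the death receptor gene Fas. It was at 5.95, 6.31, 6.79, 6.65 and 6.91 log2 in the KO tumours, against 5.57, 5.33, 5.30, 6.08 and 5.36 log2 in the WT tumours. KO tumour 2 lay just below WT tumour 12, and the other KO tumours lay above all WT tumours. The difference was 1.01 ± 0.22 log2 (SE, adjusted p = 0.0216, limma). Its WT mean of 5.53 log2 lay under the filter level, so it entered the test only through its higher KO values. It did not pass with mouse means (1.13 log2, adjusted p = 0.0782, limma), without mouse 04 (0.82 log2, adjusted p = 0.0950) or 72 (1.24 log2, adjusted p = 0.155), or within numbers 191 to 229 (1.27 log2, adjusted p = 0.265) or 254 to 258 (0.89 log2, adjusted p = 0.251). Its ligand gene Fasl, made by cytotoxic lymphocytes, and Cd27, a receptor of T and B cells, lay below the filter, at 4.94 ± 0.88 and 5.77 ± 0.15 log2 in KO and 3.29 ± 0.19 and 5.004 ± 0.37 in WT tumours (SD, n = 5 each). In the fit without the filter their differences were 1.66 and 0.78 log2 (adjusted p = 0.0266 and 0.0271, limma). The lymphotoxin receptor gene Ltbr was at 8.06 ± 0.08 log2 in KO tumours and 7.95 ± 0.22 log2 in WT tumours (SD, n = 5 each), and the antigen-presenting cell receptor gene Cd40 at 9.004 ± 0.37 and 8.67 ± 0.30, and neither passed (adjusted p = 0.637 and 0.376, limma). The median difference of the 8 was 0.17 log2.

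Downstream of the receptors, 16 genes of TRAF adaptors and receptor-proximal kinases were tested and 0 passed, with a median difference of 0.19 log2. Over all genes tested 7.09% passed in either direction. An unadjusted p under 0.05 was found for 5 of the 16, where 22.4% of all genes tested had one (limma). The smallest p-values were those of Birc3, which encodes the ubiquitin ligase cIAP2, at 10.16 ± 0.35 log2 in KO tumours and 9.29 ± 0.45 log2 in WT tumours (SD, n = 5 each, adjusted p = 0.0628, limma), and of Tank, a TRAF-binding protein gene, at 7.25 ± 0.18 log2 in KO tumours and 6.803 ± 0.20 log2 in WT tumours (adjusted p = 0.0655). Of NF-kB subunits and IkB kinases 6 were tested and 0 passed, with 1 at an unadjusted p under 0.05. That was Rel, a subunit gene of lymphoid cells, at 8.34 ± 0.83 log2 in KO tumours and 7.14 ± 0.47 log2 in WT tumours (SD, n = 5 each, adjusted p = 0.104, limma). The median of these 6 was 0.19 log2.

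Of 12 genes listed under NF-kB feedback, all tested, 3 rose and 0 fell, where 4.16% of all genes tested rose. Their median difference was 0.39 log2. The list also holds nuclear IkB proteins, NF-kB partners and TNF-induced genes, and the 3 that rose are of these kinds. Nfkbiz, which encodes a nuclear IkB protein, was at 11.22 ± 0.44 log2 in KO tumours and 9.998 ± 0.42 log2 in WT tumours (SD, n = 5 each, difference 1.21 ± 0.26, SE, adjusted p = 0.0206, limma). Tnfaip8, a TNF-induced gene, was at 10.59 ± 0.21 log2 in KO tumours and 9.53 ± 0.49 log2 in WT tumours (difference 1.08 ± 0.23, SE, n = 5 each, adjusted p = 0.0210, limma). Bcl3, a partner of NF-kB subunits in the nucleus, was at 9.35 ± 0.25 log2 in KO tumours and 8.63 ± 0.38 log2 in WT tumours (difference 0.74 ± 0.20, SE, n = 5 each, adjusted p = 0.0481, limma). All 5 KO tumours were above all 5 WT tumours for 5 of the 12 genes, where 5.33% of all genes tested did so. These were Nfkbiz, Tnfaip8 and Bcl3 and also Tnfaip2 and Cyld, which did not pass (adjusted p = 0.0539 and 0.0667, limma). Nfkbiz did not pass without KO tumour 6 (1.22 log2, adjusted p = 0.0539, limma), WT tumour 1 (1.12 log2, adjusted p = 0.0528), mouse 04 (0.94 log2, adjusted p = 0.0690) or mouse 72 (1.02 log2, adjusted p = 0.274). Tnfaip8 did not pass without mouse 04 (0.97 log2, adjusted p = 0.0830, limma). Bcl3 did not pass without any of KO tumours 2, 6, 7, 9 and 11 or WT tumours 1, 8 and 13 (adjusted p between 0.0572 and 0.103, limma), nor without any 1 of the 5 mice (adjusted p between 0.0595 and 0.182). With mouse means Nfkbiz and Bcl3 did not pass (adjusted p = 0.0826 and 0.113, limma). Within sample numbers 191 to 229 the differences of Nfkbiz, Tnfaip8 and Bcl3 were 0.99, 0.96 and 0.63 log2 and none passed (adjusted p = 0.431, 0.466 and 0.602, limma), and within 254 to 258 those of Nfkbiz and Bcl3 were 1.63 and 1.01 log2 and neither passed (adjusted p = 0.0964 and 0.105). After the 3′ to 5′ adjustment Nfkbiz and Bcl3 did not pass (1.17 and 0.67 log2, adjusted p = 0.0543 and 0.102, limma). Bcl3 did not pass without the level filter either (adjusted p = 0.0527, limma), nor with a filter at the 60th percentile (0.0504), median centring (0.0511), cyclic loess (0.0565) or the range of sample numbers as a covariate (0.0693). The classical feedback genes Nfkbia and Tnfaip3 did not pass (adjusted p = 0.324 and 0.527, limma).

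**Figure D4:**
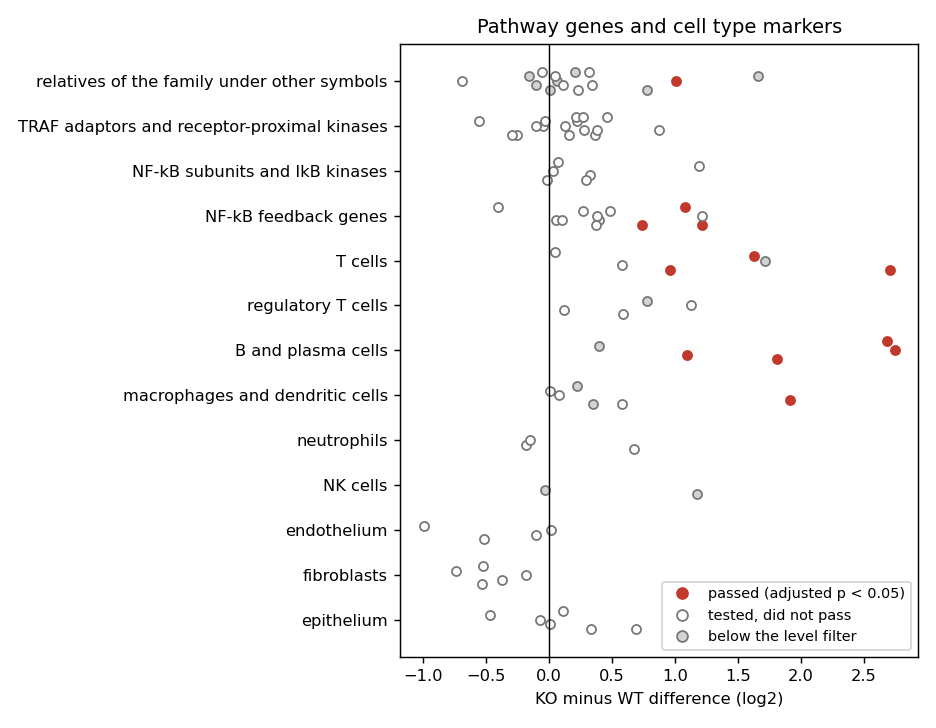
KO minus WT difference (log2) of single genes, 1 point each, in lists of relatives of the family, downstream genes and cell type markers. Filled points passed the test, open points did not and grey points lay below the level filter. The 4 tested B and plasma cell markers all lie to the right, between 1.10 and 2.75, and 0 of the 16 TRAF adaptor and kinase genes passed. Of these markers Cd79a, Cd79b and Pou2af1 entered the test only through their higher KO values. Over all genes tested 4.16% rose and 7.09% passed in either direction.

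Among the other cell types, 1 of 4 tested markers of macrophages and dendritic cells rose, the lipopolysaccharide co-receptor gene Cd14 by 1.91 log2 (adjusted p = 0.00186, limma), though not within sample numbers 191 to 229 (1.70 log2, adjusted p = 0.360). The mean level of the 6 measured ran between 7.10 and 7.36 log2 in KO tumours and between 6.23 and 7.08 in WT tumours. No marker of neutrophils (3 tested), endothelium (4), fibroblasts (5) or epithelium (6) passed, and at an unadjusted p under 0.05 there were 1, 0, 1 and 2 (limma). Over all genes tested 4.16% rose and 22.4% had an unadjusted p under 0.05. All 5 fibroblast markers had differences below 0, between -0.74 and -0.18 log2, and the 6 epithelial markers ran between -0.47 and 0.69. Both NK cell markers measured lay below the filter, with Ncr1 at 3.13 ± 0.13 log2 in KO tumours and 3.17 ± 0.08 log2 in WT tumours and Klrd1 at 4.71 ± 0.29 log2 in KO tumours and 3.54 ± 0.06 log2 in WT tumours (SD, n = 5 each). Klrd1 differed by 1.18 log2 without overlap (adjusted p = 0.00123 in limma without the level filter).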

How the data were processed

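The deposited values are log2 signals that the authors made with RMA (version not given), per the submitters' processing notes. RMA subtracts background, forces the arrays to the same distribution, which removes global shifts, and compresses low signals. Precision is limited by the number of arrays, and detection calls were not used. Probe sets numbered 45101, of which 34945 had 1 symbol, 932 several and 9160 none, with 64 controls, and 34741 were renamed by Entrez identifier. Each gene was represented by its brightest probe set, and 12250 of 18193 genes, with a mean of 5.82 log2 or more (the 40th percentile over probe sets), were tested in limma 3.58.1 under R 4.3.3 (statmod 1.5.0 for the random block by mouse, consensus correlation 0.0586). The fit was tested on simulated data.

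The genes and lists were chosen with earlier results of these data known. Members past the threshold, those without overlap and, up to 12 in all, those with the next smallest p were given tumour by tumour. From each list the members past the threshold, up to 4, or else those with the smallest p were named. Tnf, Fasl, Cd27, Ltbr, Cd40, Nfkbia, Tnfaip3, Epcam, Vil1, Cd3d, Cd3e, Cd4, Ms4a1, Ncr1 and Klrd1 were named besides for their role. Tnfaip2 and Cyld were named because their groups did not overlap. Probe sets with several symbols were kept out of the gene test. The alternatives changed the block (none, or mouse means), the level filter, the choice of probe set (means, or none ending in x_at or s_at), the scaling (median centring, cyclic loess) and eBayes (trend and robust). Others gave the arrays weights, required a fold of at least 2, took the 3′ to 5′ difference or the range of sample numbers as a covariate, used each range alone, or left out each tumour or mouse. Further probe sets were added after seeing the data.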

Additional observations from a re-analysis of the deposited data

Results flagged for a closer look

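In 5 of the 48 groups of 5 tumours (24 genes, KO and WT each) 1 tumour lay apart from the other 4 beyond Dixon's critical value, and chance alone flags about 1 in 20 groups. For Tnfrsf8 KO tumour 6 was at 5.56 log2, with the other KO tumours between 5.18 and 5.28. For Tnfsf11 KO tumour 7 was at 6.63 log2, with the others between 4.73 and 5.11. For Tnfrsf14 WT tumour 3 was at 6.82 log2, with the other WT tumours between 6.04 and 6.25, and for Tnfrsf11b the same tumour was at 9.53 log2, with the others between 10.61 and 10.91. For Tnfrsf9 WT tumour 8 was at 4.60 log2, with the others between 5.94 and 6.42.

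Outside the gene comparison, the probe set that lists Tnfsf13, Tnfsf12 and Tnfsfm13 was at 9.73 ± 0.18 log2 in KO tumours and 8.59 ± 0.42 log2 in WT tumours (SD, n = 5 each), a difference of 1.14 log2 (adjusted p = 0.0108, limma).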

How the results depend on the processing

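Of 113 values of the 4 called genes under the alternatives, 80 stayed past the threshold and 0 changed sign. Tnfrsf13c passed wherever it was tested, which it was not with a filter at the 60th percentile. Of 411 values of the 14 genes that did not pass, 373 kept sign and side of the threshold, 32 changed sign and 6 passed. Members called higher, 4 as reported, numbered 1 with mouse means and 1, Tnfrsf1a, with a filter at the 60th percentile, which left Tnfrsf13c untested. They numbered 2 with the 3′ to 5′ covariate, without mouse 04, without mouse 72 and at a fold of at least 2, and between 1 and 5 with 1 tumour left out. Within 254 to 258, 1 member was called lower, where 0 were otherwise. Genes of the 4 pathway lists called higher, 4 as reported, numbered 1 with mouse means, 0 within 191 to 229, 2 within 254 to 258, 2 at the 60th percentile, 8 with array weights, 2 with the 3′ to 5′ covariate, 0 without mouse 04, 1 without mouse 72 and between 2 and 6 with 1 tumour left out; 1 was called lower within 254 to 258 and 1 without mouse 72. All genes called higher and lower, 509 and 359 as reported, numbered 195 and 193 with mouse means, 12 and 18 within 191 to 229, 331 and 217 with the 3′ to 5′ covariate, 318 and 230 when mouse 02 was left out, 265 and 202 for mouse 04, 135 and 153 for mouse 72, 252 and 217 at a fold of at least 2, and between 286 and 539 and between 186 and 406 with 1 tumour left out; at the 60th percentile 219 were lower.

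Sign changes were seen in genes that did not pass. Within 191 to 229 the difference (log2) was 0.14 for Tnfsf9, 0.0601 for Tnfrsf12a and -0.30 for Tnfrsf21. Within 254 to 258 it was -0.13 for Tnfrsf18, 0.38 for Tnfrsf22, -0.16 for Tnfrsf25, 0.73 for Tnfrsf23 and -0.94 for Tnfsf14. With the range as a covariate it was -0.0899 for Tnfrsf25, 0.16 for Tnfrsf23 and -0.23 for Tnfsf14. Without mouse 72 it was 0.20 for Tnfsf9, 0.13 for Tnfrsf12a, -0.0867 for Tnfsf13b and -0.11 for Tnfrsf25. Without mouse 02 it was 0.0146 for Tnfrsf12a and -0.000266 for Tnfsf14, which was also -0.0491 without mouse 82, -0.0344 without mouse 99, -0.0065 as a mean of probe sets and -0.0461 with its second probe set. For Tnfrsf21 it was -0.0025 with cyclic loess, -0.0186 with the 3′ to 5′ covariate and -0.0874 without mouse 04. With 1 tumour left out it ran between -0.11 and 0.26 for Tnfsf14, -0.21 and 0.18 for Tnfrsf21 and -0.000285 and 0.23 for Tnfrsf25. The cause of these changes was not tested.

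The fits within a range of numbers and without mouse 72 leave 1 tumour in a group, which is assumed to vary like the others. No paired analysis was made because KO and WT tumours came from different mice and the labels name no pairs. Signal over background was not assessed, which limits the low genes, Tnfrsf13c and Tnfsf13os in WT tumours among them.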
